A study of Homo sapiens with 12 samples.

Results

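The replication-dependent core histone genes are the multicopy genes that supply H2A, H2B, H3 and H4 during DNA synthesis. They were taken from the deposited gene tables by gene ID: 80 IDs followed the naming pattern of the HIST1 to HIST4 core histone genes, 11 of these were left out as pseudogenes by their ID, and 69 members remained of 43828 gene places. By type there were 17 H2A, 23 H2B, 14 H3 and 15 H4 genes, and by cluster 49 in HIST1, 15 in HIST2, 4 in HIST3 and 1 in HIST4. RefSeq annotates 5 of the 69 (HIST2H2BA, HIST2H2BB, HIST2H2BC, HIST2H2BD and HIST3H2BA) as pseudogenes, and they stayed in because the naming rule keeps them. On hg19 the HIST1 members lay in 3 stretches of chromosome 6, with 29 at chr6:25726290-26285761, 5 at chr6:27093675-27115316 and 15 at chr6:27775256-27861668. Most HIST2 members (14) lay at chr1:149369721-149859465.

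The RNA came from CCRF-CEM, a human T lymphoblast leukemia line, in 4 groups of 3 libraries. SLFN11 knockout (KO) cells received 100 nM camptothecin for 4 h or DMSO, and the SLFN11-positive parent cells, labelled wild-type, received the same 2 treatments. Camptothecin traps topoisomerase I on DNA and stalls replication forks, and SLFN11 is a putative helicase that makes cancer cells sensitive to such drugs. Neither the method of the knockout nor the number of clones behind it is labelled. Nothing in the labels ties the 3 libraries of a group to separate cultures either, so each p-value below speaks of library-to-library spread that could be technical.

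Core histone messages are made almost only while DNA is copied. Each nucleosome needs a pair of each core histone, so the 4 types are made together, and blocking replication is known to bring their messages down quickly. Most are short, have no intron and end in a conserved stem-loop in place of a poly(A) tail. The stem-loop binding protein SLBP holds that end and directs its processing, its translation and its decay. Transcription takes place at histone locus bodies, where NPAT, a substrate of cyclin E and CDK2, activates the genes. Poly(A) selection or its absence was not given in the sources used here. It matters because reads of tailless messages are lost by such selection.

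The stem-loop is shown for a member of each type, since most of these messages end in it in place of a poly(A) tail. The 16-base histone stem-loop motif was searched on the sense strand of GENCODE v29 transcripts and found in 5 forms, of which 4 are spelled out below. It followed the stop codon in 31 of the 34 members whose annotated transcript runs at least 30 bases past it. In the 31 members it began 23 to 68 bases after the stop codon, with a median of 37. Searched over whole transcripts, with members included, the motif was in 34 of 19702 protein-coding genes (0.173%). Genes annotated with too little sequence after the stop codon, as were many of the 64 members with a coding transcript, can be missed in that count. It therefore does not show which other genes lack the motif. The capitals mark the motif, read 5′ to 3′ on GRCh38.
HIST2H2AA4 (H2A), chr1:149851569-149851594, plus strand: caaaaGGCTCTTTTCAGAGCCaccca
HIST1H2BF (H2B), chr6:26199963-26199988, plus strand: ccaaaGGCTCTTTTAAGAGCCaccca
HIST1H3H (H3), chr6:27810511-27810536, plus strand: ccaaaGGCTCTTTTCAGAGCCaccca
HIST1H4J (H4), chr6:27824454-27824479, plus strand: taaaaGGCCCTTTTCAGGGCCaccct
The form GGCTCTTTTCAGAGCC was the commonest, with 17 members, all of them H2A, H2B or H3 genes. The H4 genes that could be read carried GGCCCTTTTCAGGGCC in 5 cases and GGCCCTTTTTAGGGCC in 3.

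Parent DMSO replicate 1 was the deepest library, with 135592046 exon reads, and the other 11 held 42439957 to 63606344. Its counts were also the least like those of its group. Chi-square divided by its degrees of freedom was 136.5 and 172.9 when it was compared with the other parent DMSO libraries and 4.71 to 16.9 in every other within-group comparison, a statistic that grows with depth. In the labels its library name also follows another pattern than those of the rest, with no reason stated. Results for parent cells are therefore given also without it where they change. SLFN11 had 88.4, 91.7 and 89.4 CPM in KO camptothecin libraries, 88.7, 86.1 and 85.9 CPM in KO DMSO libraries, 118.7, 122.9 and 119 CPM in parent camptothecin libraries, and 117.3, 107.4 and 112.2 CPM in parent DMSO libraries (CPM, exon reads scaled to the TMM-adjusted library size). Its RNA was 1.29-fold lower in KO DMSO than in parent DMSO libraries (edgeR adjusted p = 0.000133) and still present, and RNA counts do not test for the protein. The 17 T lymphoblast markers summed to between 1975 and 3297 CPM in every library, and myeloid, erythroid, and epithelial and fibroblast markers each to less than 9.34 CPM. B-lineage markers summed to between 26.2 and 45.5 CPM.

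Members varied widely in level. Per exon length (RPKM, CPM per kilobase of exon), HIST1H4K and HIST1H4J led with means of 3888 and 3675 RPKM over the 12 libraries, followed by HIST2H2AA4 with 3105 and HIST1H3B with 2760 RPKM. The leading H2B genes were lower, at 1670 RPKM for HIST1H2BH, 1399 for HIST1H2BG and 1355 for HIST1H2BK. Near-identical copies shared their counts: HIST2H2AA3 and HIST2H2AA4, HIST1H4J and HIST1H4K, HIST2H4A and HIST2H4B, and HIST2H3A and HIST2H3C differed by at most 5.32% in any library, so each pair is uncertain as to which copy was read and is a single measurement. The RPKM of HIST2H2AA3, 1733, differs from that of its copy because its annotated exon length is 974 bases, against 549. HIST1H2AD lies inside HIST1H3D, and HIST1H4I inside HIST1H2BK, and neither inner gene has unshared exon sequence. HIST1H3D has 480 unshared bases among its 865 exon bases, so reads of HIST1H2AD cannot be told from those of HIST1H3D. All 820 exon bases of HIST1H2BK are unshared, so HIST1H4I overlaps its intron and not its exons.

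Of the 69 members, 64 passed the filter on low counts. The members left untested were HIST1H2AA, HIST1H2BA, HIST3H2BA, HIST3H2BB and HIST3H3, with at most 13 exon reads in any library. Of the HIST3 cluster, HIST3H2A was tested with no more than 15 reads in a library.

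The first question was what camptothecin did to histone messages in cells without SLFN11. In KO cells the summed core histone level fell to 18161, 18281 and 15892 CPM with camptothecin, against 44371, 43764 and 44801 CPM with DMSO. The groups did not overlap, and the ratio of their means was 0.394. As a share of exon reads, the members took 1.77% to 1.98% in KO camptothecin libraries and 4.34% to 4.36% in KO DMSO libraries. In bulk samples fewer cells that express a gene and less RNA per cell cannot be told apart.

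Of the 64 tested members, 58 fell in KO cells and 0 rose (edgeR quasi-likelihood, Benjamini-Hochberg adjusted p below 0.05). Over all 23546 genes tested 9.28% fell and 7.3% rose. No member rose at an unadjusted p below 0.05 or by DESeq2 either. The median log2 change was -1.41 over the tested members and 0.02 over all genes. In 60 of 64 the KO camptothecin and KO DMSO libraries did not overlap, as was the case for 38.5% of all genes tested. The fall reached each type: 15 of 16 H2A genes (median -1.50), 18 of 20 H2B (-1.59), 12 of 13 H3 (-1.36) and 13 of 15 H4 (-1.08).

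**Figure D1:**
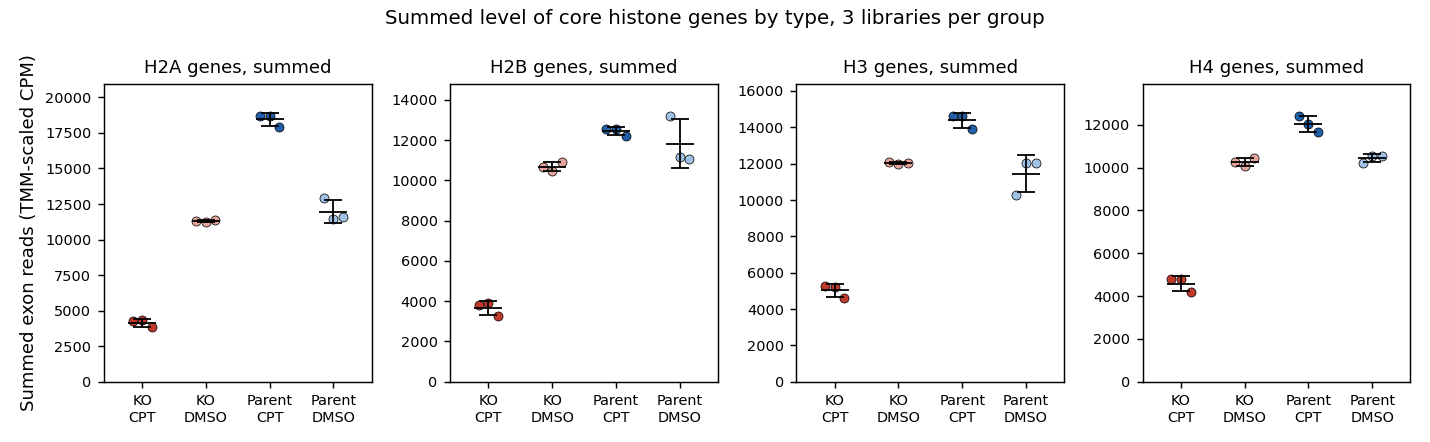
Summed exon reads of each core histone type in TMM-scaled CPM, with 1 point per library, the horizontal mark at the mean and the bars at 1 SD (n = 3 per group). KO camptothecin libraries lie lowest for each type, and parent camptothecin libraries lie above parent DMSO libraries for H2A, H3 and H4 but not for H2B, where parent DMSO replicate 1 is highest.

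Among called members H2B held the largest falls. HIST1H2BM had 27.1, 26.4 and 24.7 CPM in KO camptothecin libraries, against 143.7, 150.6 and 147.2 CPM in KO DMSO libraries. The lowest KO DMSO value lay far above the highest KO camptothecin value, and the log2 change was -2.50 ± 0.13 (SE, edgeR adjusted p = 1.4e-08). HIST1H2BF had 140.3, 145.8 and 126.4 CPM with camptothecin, against 528.1, 583.3 and 564.6 CPM with DMSO, a fall of 2.02 ± 0.14 on the log2 scale (edgeR adjusted p = 3.4e-07). Its groups did not overlap. The most highly expressed H2B gene per length, HIST1H2BH, had 333, 341 and 290 CPM with camptothecin, against 775, 762 and 794 CPM with DMSO, a smaller fall of 1.27 ± 0.07. HIST1H2BG had 219, 236 and 201 CPM with camptothecin, against 736, 698 and 714 CPM with DMSO, and HIST1H2BK, which holds HIST1H4I, had 511, 525 and 442 CPM, against 1217, 1142 and 1202 CPM. None of these groups overlapped.

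Among H2A genes, HIST2H2AA4 had 531.3, 524.9 and 462.3 CPM in KO camptothecin libraries, against 1436, 1451 and 1494 CPM in KO DMSO libraries. HIST1H2AI had 461.8, 435.3 and 406.2 CPM with camptothecin, against 1129, 1114 and 1196 CPM with DMSO. Both pairs of groups were apart, with log2 changes of -1.53 ± 0.08 and -1.40 ± 0.07 (edgeR adjusted p = 8.4e-10 and 2.8e-10). HIST1H2AJ had 372, 399 and 345 CPM with camptothecin, against 976, 937 and 941 CPM with DMSO, and fell by 1.36 ± 0.10.

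H3 genes fell over a range that ended near 0. HIST1H3B, the H3 gene with the most reads per length, had 719.8, 694.4 and 619.5 CPM in KO camptothecin libraries, against 1550, 1515 and 1526 CPM in KO DMSO libraries (log2 change -1.17 ± 0.08, edgeR adjusted p = 2.8e-08). HIST1H3D had 543, 544 and 471 CPM with camptothecin, against 1340, 1324 and 1344 CPM with DMSO, and fell by 1.36 ± 0.07. HIST1H3F had 357, 351 and 301 CPM with camptothecin, against 746, 747 and 753 CPM with DMSO, and fell by 1.15 ± 0.07. In all 3 genes the groups were apart. HIST1H3E stood out, with 8.78, 7.08 and 7.08 CPM with camptothecin, against 7.91, 7.64 and 7.69 CPM with DMSO. Its groups overlapped (log2 change -0.02 ± 0.11, edgeR adjusted p = 0.93), and at 20.4 RPKM it was the lowest tested H3 gene.

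H4 genes fell least by median. HIST1H4C had 423.9, 442.8 and 374.1 CPM in KO camptothecin libraries, against 719.8, 732.7 and 749.1 CPM in KO DMSO libraries, a fall of 0.83 ± 0.07 on the log2 scale (edgeR adjusted p = 3.3e-07). Of the copies HIST1H4J and HIST1H4K, read here as HIST1H4J, the level was 663, 665 and 599 CPM with camptothecin, against 1508, 1490 and 1558 CPM with DMSO, a fall of 1.24 ± 0.07. HIST1H4D had 313, 317 and 282 CPM with camptothecin, against 579, 569 and 583 CPM with DMSO, and fell by 0.92 ± 0.07. The groups did not overlap in any of these.

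The 6 members that missed the call were HIST1H3E, HIST1H4F, HIST1H4G, HIST2H2BB, HIST2H2BC and HIST3H2A, and they were singled out after their values were seen. HIST2H2BB and HIST2H2BC, annotated as pseudogenes, had log2 changes of -2.41 ± 0.76 and -1.70 ± 0.58 with wide errors. HIST1H4F and HIST3H2A had at most 26 reads in any library. HIST1H4G had 321 exon reads in KO DMSO replicate 1 and 0 to 29 reads in each of the other libraries, so its values rest on that library. By cluster the falls were alike in size, with 44 of 47 tested HIST1 members (median -1.40) and 13 of 15 HIST2 members (median -1.48) called, and HIST4H4, the lone HIST4 gene, down by 1.04 on the log2 scale.

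**Figure D2:**
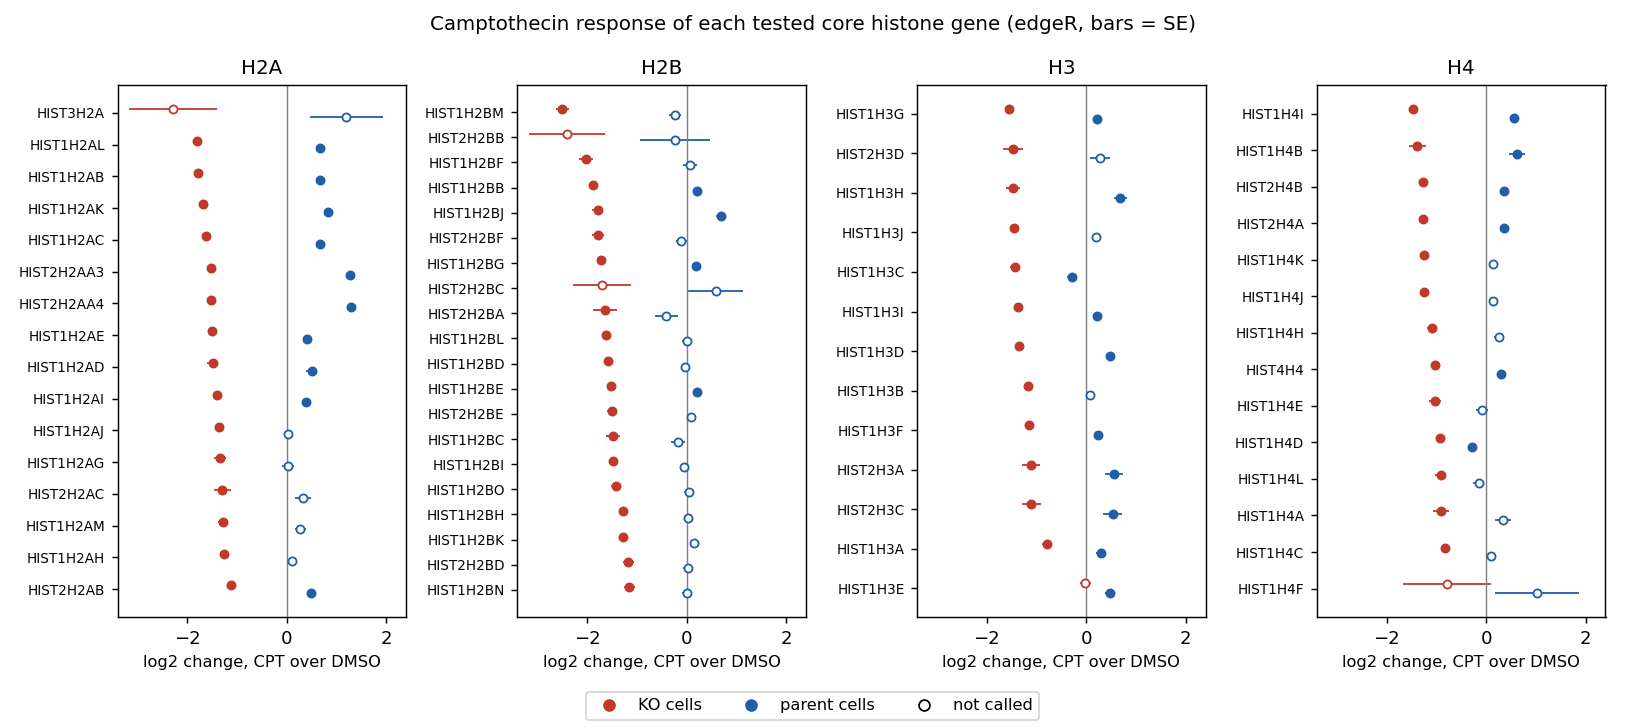
Log2 change with camptothecin over DMSO for 63 of the 64 tested members, by type, in KO cells (red) and parent cells (blue), with bars of 1 SE and open points where the adjusted p was 0.05 or more. HIST1H4G, whose KO DMSO value rests on a single library, is not drawn. All the red points lie left of 0, and HIST1H3E lies next to it.

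In the SLFN11-positive parent the same treatment gave another picture. The summed level was 58328, 57909 and 55707 CPM in parent camptothecin libraries, against 46684, 45163 and 45234 CPM in parent DMSO libraries, with no overlap and a ratio of means of 1.25. Of the 64 tested members, 28 rose and 2 fell, beside 16.8% and 17.1% of all genes tested. The median log2 change was 0.23 over the tested members and 0.01 over all genes. In 36 of 64 the groups did not overlap, as in 44.8% of all genes. Without parent DMSO replicate 1, 38 rose and 1 fell, beside 19% and 17.4% of all genes in that fit. By cluster, the summed HIST2 level was 1.56 times the DMSO level and the summed HIST1 level 1.15 times, with 7 of 15 and 20 of 47 tested members called higher. The near-identical pair HIST2H2AA3 and HIST2H2AA4 carried most of that HIST2 rise, and without it the summed HIST2 level was 1.28 times the DMSO level.

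By type, H2A rose in 10 of 16 cases (median 0.49), H3 in 9 of 13 (median 0.27), H4 in 5 of 15 (median 0.30) and H2B in 4 of 20 (median 0.03). Without parent DMSO replicate 1 the counts were 14 for H2A, 9 for H3, 7 for H4 and 8 for H2B, with medians of 0.64, 0.29, 0.18 and 0.15 in that order. Differences between types were not tested, and near-identical copies are counted under both names. That library had the highest H2B sum of its group, 13214 CPM against 11182 and 11063, and the lowest H3 sum, 10296 CPM against 12013 and 12047. Its part in the H2B result was not tested beyond leaving it out.

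The balance of H2A to H2B moved with it. The summed H2A level over the summed H2B level was 1.47 to 1.49 in parent camptothecin libraries and 0.979 to 1.05 in parent DMSO libraries. In KO cells it was 1.11 to 1.18 with camptothecin and 1.05 to 1.08 with DMSO. In each genotype the camptothecin libraries lay above the DMSO libraries. Much of the parent gap came from the shared reads of HIST2H2AA3 and HIST2H2AA4, which enter the H2A sum under both names. Without that pair the ratio was 0.933 to 0.938 in parent camptothecin libraries and 0.753 to 0.79 in parent DMSO libraries, and 0.845 to 0.895 in KO camptothecin libraries and 0.771 to 0.798 in KO DMSO libraries. The ratio of mean sums, camptothecin over DMSO, was 1.54 for H2A and 1.05 for H2B in the parent, and 0.368 for H2A and 0.344 for H2B in KO cells. Without the HIST2H2AA pair the H2A ratio was 1.27 in the parent and 0.376 in KO cells.

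Among called members the largest rises belonged to HIST2H2AA3 and HIST2H2AA4, copies that share their counts and were thus a single rise. HIST2H2AA4 had 3509, 3453 and 3362 CPM in parent camptothecin libraries, against 1252, 1503 and 1481 CPM in parent DMSO libraries, a log2 change of 1.29 ± 0.08 (edgeR adjusted p = 2.6e-09). Each parent camptothecin value was above every parent DMSO value. HIST1H2AI had 1540, 1555 and 1451 CPM with camptothecin, against 1186, 1164 and 1137 CPM with DMSO, a log2 change of 0.38 ± 0.07 (edgeR adjusted p = 0.00022). HIST1H2AJ, similar in level, had 1157, 1159 and 1134 CPM with camptothecin, against 1358, 996 and 1021 CPM with DMSO. Its groups overlapped only through parent DMSO replicate 1 (log2 change 0.03 ± 0.10), and without that library it rose by 0.19 (edgeR adjusted p = 0.00197).

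Among H2B genes HIST1H2BJ, chosen here after its values were seen, had 919, 958 and 1000 CPM in parent camptothecin libraries, against 580, 612 and 589 CPM in parent DMSO libraries (log2 change 0.69 ± 0.11, edgeR adjusted p = 0.0001). HIST1H2BF had 816, 800 and 777 CPM with camptothecin, against 1000, 633 and 653 CPM with DMSO, and its log2 change of 0.07 ± 0.14 became 0.31 without parent DMSO replicate 1 (edgeR adjusted p = 1.37e-05). HIST1H2BG rose by 0.19 ± 0.07 (edgeR adjusted p = 0.033), a call lost when any of 8 of the 12 libraries was left out, each parent camptothecin library among them. HIST1H2BM changed by -0.22 ± 0.12 (edgeR adjusted p = 0.19) and was not called, and its change was 0.005 without parent DMSO replicate 1.

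In the H3 group HIST1H3D rose by 0.47 ± 0.07, with 2034, 1992 and 1934 CPM in parent camptothecin libraries, against 1532, 1374 and 1404 CPM in parent DMSO libraries. HIST1H3F rose by 0.24 ± 0.07, and HIST1H3B did not pass the test (log2 change 0.08 ± 0.08). HIST1H3E, which did not change detectably in KO cells, rose by 0.48 ± 0.11 in parent cells, with 13.3, 13.4 and 12.2 CPM in parent camptothecin libraries, against 8.31, 10.3 and 9.33 CPM in parent DMSO libraries (edgeR adjusted p = 0.002). Its groups did not overlap. Its KO minus parent difference in response, -0.50, was the smallest of the 13 tested H3 genes. By the test of that difference 12 of the 13 were called lower, and 13 without parent DMSO replicate 1.

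The members that went the other way were HIST1H3C and HIST1H4D. HIST1H3C had 761.6, 745.3 and 731.7 CPM in parent camptothecin libraries, against 1101, 814.7 and 813.3 CPM in parent DMSO libraries (log2 change -0.29 ± 0.10, edgeR adjusted p = 0.033). Without parent DMSO replicate 1 its log2 change was -0.12 and no longer passed the test (edgeR adjusted p = 0.0685). HIST1H4D had 525.9, 513.2 and 502.9 CPM with camptothecin, against 680.3, 599.4 and 600.2 CPM with DMSO (log2 change -0.29 ± 0.07, edgeR adjusted p = 0.0032). In both genes every parent camptothecin library lay below every parent DMSO library. The abundant H4 genes HIST1H4C, HIST1H4J and HIST1H4K had log2 changes of 0.10 to 0.14 and were not called. HIST1H4J and its copy rose, by 0.18, once parent DMSO replicate 1 was left out (edgeR adjusted p = 0.00331 for HIST1H4J).

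**Figure D3:**
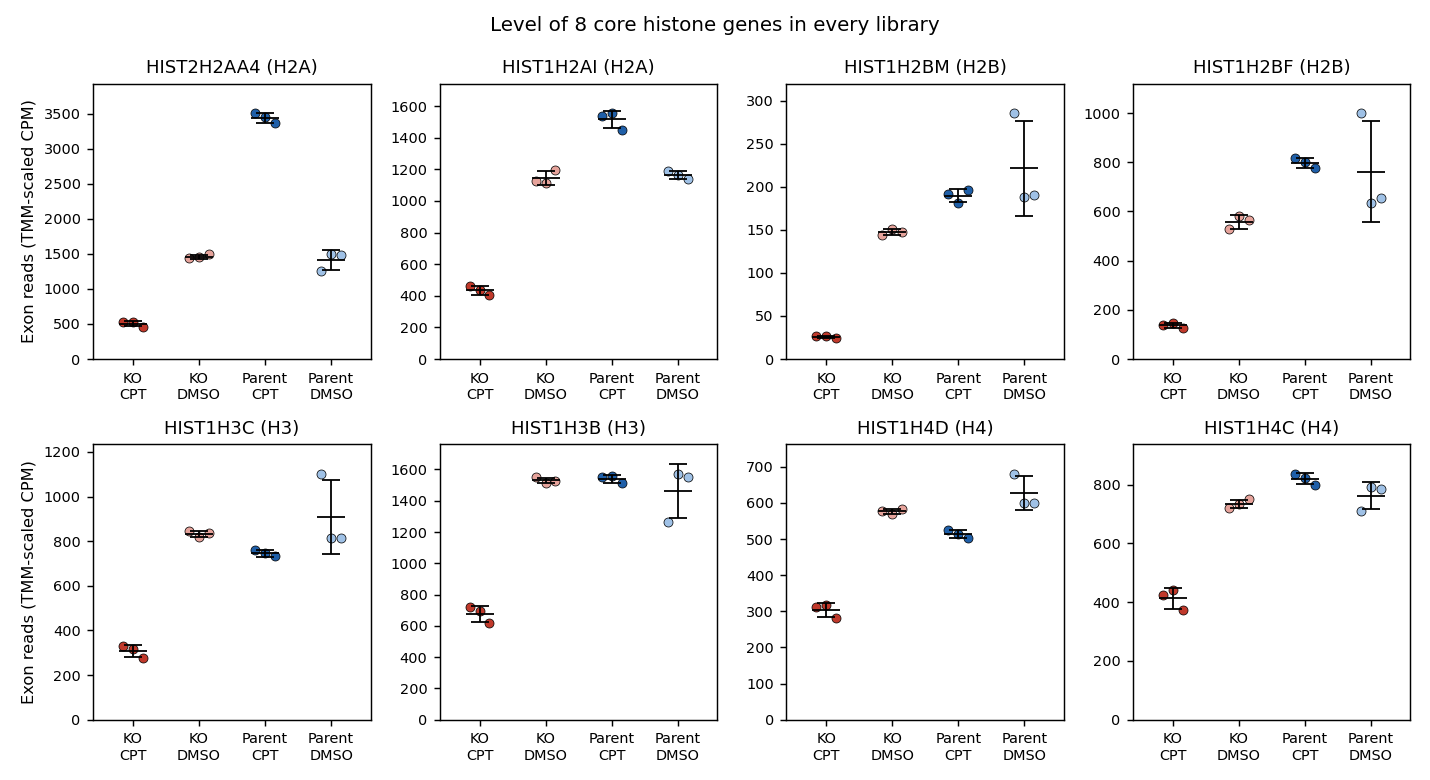
Exon reads in TMM-scaled CPM for 8 members in every library, with the mean and bars of 1 SD (n = 3 per group) and axes that start at 0. HIST2H2AA4 is highest in parent camptothecin libraries, HIST1H2BM and HIST1H2BF are lowest in KO camptothecin libraries, and parent DMSO replicate 1 lies apart from its group in HIST1H2BM, HIST1H2BF and HIST1H3C.

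The difference between the genotypes was tested directly as the KO response minus the parent response. Of the 64 tested members, 57 had a lower response in KO cells and 0 a higher one, with 0 higher also by DESeq2 and at an unadjusted p below 0.05 by edgeR. Over all genes tested 4.47% were called lower and 1.84% higher. The median difference was -1.62 on the log2 scale over the tested members and 0.02 over all genes. HIST2H2AA4 had the lowest called value (-2.81 ± 0.11, edgeR adjusted p = 5e-11), followed by its copy HIST2H2AA3. HIST1H2BM differed by -2.27 ± 0.18, HIST1H3B by -1.25 ± 0.12 and HIST1H4D by -0.64 ± 0.10. Of the tested members 27 fell in KO cells and rose in parent cells, 29 fell in KO cells and were not called in parent cells, and 2, HIST1H3C and HIST1H4D, fell in both. Both responses enter this difference, so these counts do not add to it.

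Before treatment the genotypes were close. The summed level was 44371, 43764 and 44801 CPM in KO DMSO libraries, against 46684, 45163 and 45234 CPM in parent DMSO libraries, a ratio of means of 0.970. Of 64 tested members 7 were lower in KO cells and 0 higher, beside 7.44% lower and 8.26% higher of all genes tested. HIST1H4G alone was higher at an unadjusted p below 0.05, through a single library, and DESeq2 called 0 higher. In 27 of 64 the groups did not overlap, as in 32.5% of all genes. The 7 were HIST1H2AB, HIST1H2AL, HIST1H2BF, HIST1H2BI, HIST1H2BM, HIST2H2BD and HIST4H4. Among the 7, HIST1H2BM had the largest difference, with 143.7, 150.6 and 147.2 CPM in KO DMSO libraries, against 285.5, 187.8 and 191 CPM in parent DMSO libraries (log2 change -0.59 ± 0.12, edgeR adjusted p = 0.0048). It was -0.36 without parent DMSO replicate 1. The counts then became 11 lower and 3 higher, beside 8.21% and 9.59% of all genes in that fit. Leaving out any KO DMSO library left 2 lower, beside 4.09% to 4.21% of all genes, so this comparison was the least settled.

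Under camptothecin the genotypes were far apart. Of 64 tested members 60 were lower in KO camptothecin than in parent camptothecin libraries and 0 were higher, also at an unadjusted p below 0.05 and by DESeq2, beside 14.6% lower and 13.4% higher of all genes tested. The groups did not overlap in 63 of 64, as in 47.4% of all genes. The median log2 difference was -1.64 over the tested members. It was -2.18 for H2A, -1.74 for H2B, -1.39 for H3 and -1.45 for H4. HIST1H2BM had 27.1, 26.4 and 24.7 CPM in KO camptothecin libraries, against 191.1, 181.6 and 196.3 CPM in parent camptothecin libraries, the lowest called log2 difference at -2.86 ± 0.13. HIST2H2AA4 followed at -2.77 ± 0.08. The 4 that missed the call were HIST1H4F, HIST1H4G, HIST2H2BC and HIST3H2A. This comparison, the KO response and the parent response share libraries, so they are not independent of each other.

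Most of these genes have no intron, but 15 members have an annotated one, as part of a longer transcript, and all 15 passed the filter on intron reads. Reads over an intron can be unspliced RNA or the message of another gene inside it, and the strand they came from is not given. In 5 of the 15 another member overlaps the gene's span (HIST1H4I in HIST1H2BK, for example), so those intron reads can include that member's message. HIST2H4A and HIST2H4B had nearly equal intron reads, so they are a single measurement counted under both names. In KO cells intron reads fell in 15 of 15 and rose in 0, beside 9.05% lower and 7.85% higher of 19908 genes tested over introns, with a median log2 change of -1.49. None rose at an unadjusted p below 0.05 (edgeR). In parent cells they rose in 6 and fell in 1, beside 12.1% higher and 14.2% lower of all genes, with a median of 0.30. Without parent DMSO replicate 1, 10 rose, and the share of all genes in that fit is not given here. Of the 10 members with no such overlap, 10 fell in KO cells, and 3 rose and 1 fell in parent cells. The difference of responses was called lower in 12 and higher in 0 (2.81% lower and 3% higher of all genes), with 0 higher at an unadjusted p below 0.05 as well. Between KO DMSO and parent DMSO libraries 3 were lower and 0 higher (6.43% and 8.17% of all genes), and between KO camptothecin and parent camptothecin libraries 15 were lower and 0 higher (13.1% and 15.5% of all genes), again with 0 higher at an unadjusted p below 0.05. DESeq2 was not run on intron reads.

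HIST1H2AC was the member with the called intron fall in parent cells. Its intron level was 8.56, 9.22 and 7.68 CPM of intron reads in KO camptothecin libraries, against 45.0, 42.8 and 48.1 in KO DMSO libraries, a fall of 2.41 ± 0.11 on the log2 scale (edgeR adjusted p = 2.1e-11). Its exon reads fell by 1.63 ± 0.06. In parent cells the intron level was 44.5, 40.7 and 45.2 CPM of intron reads with camptothecin, against 75.8, 55.9 and 63.0 with DMSO, lower by 0.58 ± 0.10 on the log2 scale (edgeR adjusted p = 0.000136), while its exon reads rose by 0.66 ± 0.06 (edgeR adjusted p = 2.2e-07). Without parent DMSO replicate 1 the intron change was -0.45. The difference between the exon and intron changes of HIST1H2AC was not tested. The annotated intron spans 13304 bases beyond the histone exon, on chr6:26124372-26139343 of hg19.

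**Figure D4:**
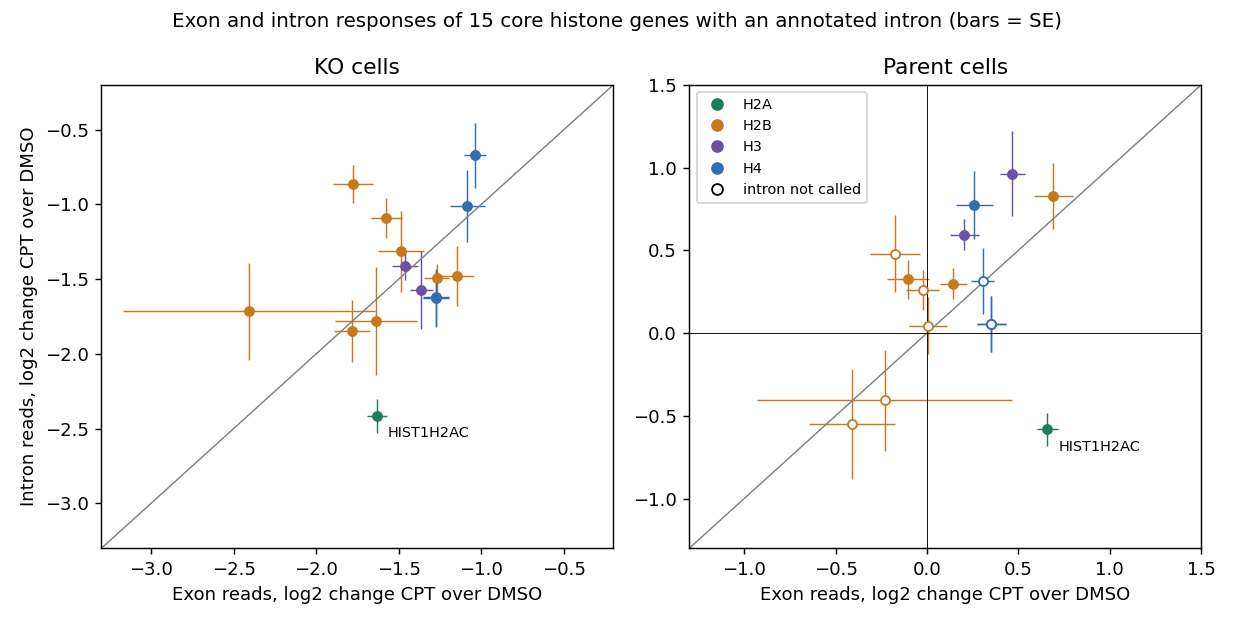
Log2 change with camptothecin over DMSO in exon reads (horizontal axis) and intron reads (vertical axis) of the 15 members with an annotated intron, in KO cells (left) and parent cells (right), with bars of 1 SE, colours by type, open points where the intron change was not called, and the grey line where both are equal. In KO cells each point lies below 0 on both axes, and in parent cells HIST1H2AC is the point to the lower right.

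Core histone genes also share features around their start sites. RefSeq promoters (GRCh38.p14, 250 bases before to 50 after the start) were matched for 59 members and searched on both strands. A member counted as a match if any of its RefSeq promoters held the motif. The shares for all genes are of single promoters, so the units differ. The CCAAT box (CCAAT) was in 16 of 16 H2A, 18 of 18 H2B, 12 of 12 H3 and 3 of 13 H4 promoters, against 34.6% of 35116 promoters of all genes. The octamer ATTTGCAT was in 11 of 16 H2A, 14 of 18 H2B, 1 of 12 H3 and 0 of 13 H4 promoters, against 1.77% of all. The lone H3 match, HIST1H3D, has the same RefSeq promoter as HIST1H2AD. Promoters of divergent neighbours overlap, so the 26 members with an octamer held it at 17 positions, 8 of them read in more than 1 member's promoter. The TATA box (TATAAA) was in 41 of the 59, against 11.5% of all. Matches of the TATA and CCAAT boxes were not counted by position, so a neighbour's match can be among them. HIST1H2BM counts as a TATA match, although the 120 bases before its start hold none. None of the 3 motifs contains another. A match is only a run of letters and does not show that a factor binds.

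Many H2A and H2B genes start back to back from a shared stretch of DNA, and the pair that holds HIST1H2BM is shown with 3 further members that differed in response. Each line gives the 120 bases before the RefSeq start, 5′ to 3′ on the gene's own strand, with the TATA box, CCAAT box and octamer (or their reverse complements) in capitals.
HIST1H2BM (H2B), chr6:27814902-27815021, plus strand: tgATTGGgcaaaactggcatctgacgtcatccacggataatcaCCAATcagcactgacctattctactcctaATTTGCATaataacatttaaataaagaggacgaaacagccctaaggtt
HIST1H2AJ (H2A), chr6:27814778-27814897, minus strand: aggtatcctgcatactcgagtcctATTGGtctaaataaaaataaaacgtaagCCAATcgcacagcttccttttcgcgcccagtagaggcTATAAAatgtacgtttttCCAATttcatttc
HIST2H2AA4 (H2A), chr1:149850941-149851060, plus strand: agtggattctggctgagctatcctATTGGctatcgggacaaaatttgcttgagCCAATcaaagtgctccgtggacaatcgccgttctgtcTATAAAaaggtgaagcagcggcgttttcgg
HIST1H3B (H3), chr6:26032100-26032219, minus strand: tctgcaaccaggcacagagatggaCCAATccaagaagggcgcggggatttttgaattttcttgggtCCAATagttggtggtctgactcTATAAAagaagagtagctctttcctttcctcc
HIST1H4D (H4), chr6:26189113-26189232, minus strand: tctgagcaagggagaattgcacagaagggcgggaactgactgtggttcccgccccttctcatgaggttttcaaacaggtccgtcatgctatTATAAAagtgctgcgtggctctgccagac
The HIST1H2BM window holds the octamer close to its start, the H2A and H3 windows hold CCAAT boxes ahead of a TATA box, and the HIST1H4D window holds a TATA box alone.

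Members that share such a stretch did not respond equally. Of 13 divergent pairs of members within 1000 bases, 11 joined an H2A to an H2B gene, and in 9 of these, with starts 194 to 248 bases apart, both genes were tested. In parent cells the H2A gene had the higher log2 change in 8 of the 9, with and without parent DMSO replicate 1, and in KO cells in 7 of the 9. In KO cells HIST1H2BM changed by -2.50 and its neighbour HIST1H2AJ by -1.36, and HIST1H2BF by -2.02 and its neighbour HIST1H2AD by -1.49. In parent cells HIST1H2AC changed by 0.66 and HIST1H2BC by -0.18, and HIST1H2BC by 0.07 when parent DMSO replicate 1 was left out. The exception in parent cells was HIST1H2BJ, at 0.69, beside HIST1H2AG, at 0.03. Of the H2A genes in these pairs, HIST1H2AD has no unshared exon bases and HIST1H2AM has 79 of 487. Their reads can include those of HIST1H3D and HIST1H3J. Of the 50-base stretches in HIST1H2AI transcripts 62.3% also occur in HIST1H2AJ, and 83.7% of those in HIST1H2AJ occur in HIST1H2AI. For HIST2H2AC 30.5% occur in HIST2H2AA3. Reads from such stretches cannot be told apart by sequence, so these pairs may not be separate measurements. These counts are descriptions of neighbouring genes and were not tested.

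**Figure D5:**
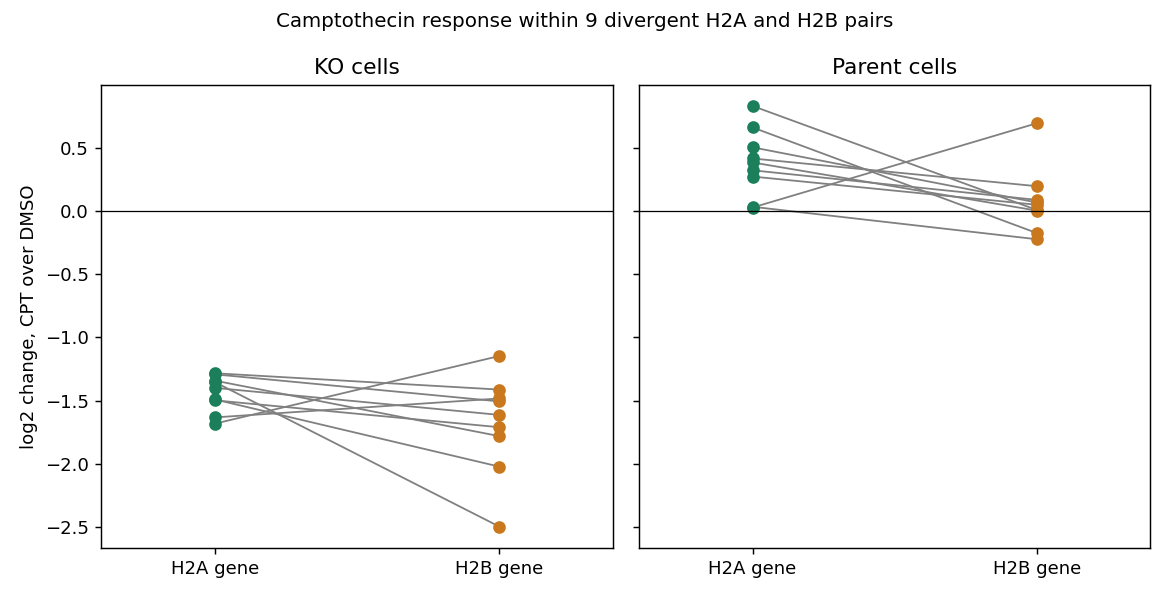
Log2 change with camptothecin over DMSO of the H2A and the H2B gene in each of the 9 divergent pairs, joined by a line, in KO cells (left) and parent cells (right). In parent cells 8 lines run down to the H2B gene, and in KO cells 7 do.

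Other genes of the pathway were read from lists, with up to 3 called genes named for each. The linker histones, which bind the DNA between nucleosomes, fell in 7 of 8 cases in KO cells and rose in 0 (median -1.36; 9.28% of all genes fell and 7.3% rose), with HIST1H1T down by 1.92 ± 0.23, HIST1H1D by 1.48 ± 0.06 and HIST1H1C by 1.46 ± 0.07. HIST1H1A did not pass the test, but it had at most 11 exon reads in any KO library, too few for a change to be read. In parent cells 4 linker genes rose and 1, HIST1H1E, fell (16.8% of all genes rose and 17.1% fell). HIST1H1T (0.998 ± 0.174), H1FX (0.71 ± 0.09) and H1F0 (0.70 ± 0.14) rose most. H1FX and H1F0 have polyadenylated messages that do not depend on replication.

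Replication-independent variants, which replace core histones outside S phase, fell in 5 of 10 cases in KO cells and rose in 0 (median -0.19), beside 9.28% and 7.3% of all genes. CENPA, the H3 variant of centromeres, fell by 1.38 ± 0.06 in KO cells and by 1.17 ± 0.06 in parent cells. H2AFJ fell by 0.56 ± 0.07 in KO cells. In parent cells 1 variant rose and 3 fell, beside 16.8% and 17.1%. Of the genes for the H3.3 protein, H3F3A fell by 0.76 ± 0.06 in parent cells, and its response differed between the genotypes by 0.64 ± 0.08. H3F3B differed the other way, by -0.66 ± 0.08.

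Of 26 factors for histone transcription and processing, 10 rose and 4 fell in KO cells, beside 7.3% and 9.28% of all genes, and 11 rose and 6 fell in parent cells, beside 16.8% and 17.1%. In KO cells CCNE2 rose by 1.07 ± 0.09 and CCNE1 by 0.78 ± 0.09, both cyclins of CDK2, and E2F1, an activator of S phase genes, by 0.75 ± 0.06. SLBP, chosen for its role after its values were seen, rose by 0.60 ± 0.08 in KO cells (edgeR adjusted p = 6.3e-05) and by 0.26 ± 0.08 in parent cells (edgeR adjusted p = 0.018), and the responses did not differ at the threshold (0.33 ± 0.11, edgeR adjusted p = 0.1). HINFP, a factor of H4 promoters, had a response lower by 0.55 ± 0.12 in KO than in parent cells. NPAT had a log2 change of 0.11 ± 0.07 in KO cells, which did not pass the test, and rose by 0.29 ± 0.07 in parent cells.

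Of 15 histone chaperones, 3 rose and 1 fell in KO cells, beside 7.3% and 9.28% of all genes, and 4 rose and 5 fell in parent cells, beside 16.8% and 17.1%. CHAF1B, a subunit of chromatin assembly factor 1, rose by 0.57 ± 0.13 and TONSL by 0.51 ± 0.08 in KO cells. Of 28 further S phase genes, 14 rose and 1 fell in KO cells (median 0.25), beside 7.3% and 9.28% of all genes, and 16 rose and 4 fell in parent cells (median 0.20), beside 16.8% and 17.1%. PCNA, the sliding clamp of replication, rose by 0.60 ± 0.06 in KO cells and CDC6, which loads the replicative helicase, by 0.58 ± 0.07. In parent cells GINS3 rose by 0.87 ± 0.07 and CDC6 by 0.85 ± 0.07. T lymphoblast markers summed to 2508 to 2597 CPM in KO camptothecin libraries, 3257 to 3297 CPM in KO DMSO libraries, 1975 to 1995 CPM in parent camptothecin libraries and 2762 to 2973 CPM in parent DMSO libraries, and their part in the histone results was not tested.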

How the data were processed

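RNA was sequenced from 12 libraries, 3 for each genotype and treatment. The deposited tables held whole-number counts of reads for each gene, split by the authors into exon, intron and unshared reads. Per the submitters' processing notes the tools were STAR 2.5.4a, Picard 2.9.2, Trimmomatic 0.39 and Trim Galore 0.6.2, with hg19 as the build; their roles are not listed. File names mark removal of duplicates, which without molecular identifiers compresses counts of short, abundant messages. Which program counted reads, on which annotation and with which strand setting, is not given in the sources used here. The 182 names at more than 1 gene place were kept apart by position.

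A quasi-likelihood model with a mean for each of the 4 groups and a robust prior was fitted to exon counts in edgeR 4.0.16 (R 4.3.3), after TMM scaling and the filterByExpr filter, which left 23546 genes. Intron counts were fitted likewise over 19908 genes. Calls needed an adjusted p (Benjamini-Hochberg, over all genes tested) below 0.05. CPM are counts scaled to the TMM-adjusted library, and RPKM further divide by exon length in kilobases. SE is the log2 change divided by the root of the test's F statistic. The scripts were tested on simulated data for KO camptothecin against KO DMSO. They recovered 40.8% of planted log2 changes of 0.585 and 59.6% of those of 1, with 5 false calls. A member that was not called can thus have changed. Alternatives were DESeq2 1.42.0, other scaling, filters and read classes, a replicate block, fewer groups, and each library left out. Same-numbered libraries of different groups did not deviate together (r = -0.032 to 0.043 over 18 pairs). A count of 0 allows up to 3 reads, 0.0255 to 0.0654 CPM, for counting error only. By rule the text names, per type, the 3 members highest in RPKM; per comparison, the 2 largest called rises and falls, and up to 5 members that go against the majority or miss the call; per other list, up to 3 called genes; and SLFN11. Members and lists were chosen with earlier results of these data known. Promoters were matched by symbol for 59 members (RefSeq GRCh38.p14), while stem-loops came from GENCODE v29 on GRCh38, and neither build was used for the counts.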

Additional observations from a re-analysis of the deposited data

Results flagged for a closer look

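The camptothecin response differed between the genotypes, by the test of the difference itself (edgeR adjusted p below 0.05), in 17 of the 21 members named by rule. The KO minus parent difference in log2 change was -2.81 for HIST2H2AA4, -2.79 for HIST2H2AA3, -1.78 for HIST1H2AI and -1.39 for HIST1H2AJ among H2A genes. For H2B genes it was -2.27 for HIST1H2BM, -2.09 for HIST1H2BF, -1.91 for HIST1H2BG, -1.41 for HIST1H2BK and -1.31 for HIST1H2BH. For H3 genes it was -1.83 for HIST1H3D, -1.39 for HIST1H3F, -1.25 for HIST1H3B and -1.15 for HIST1H3C. For H4 genes it was -1.38 for HIST1H4J and HIST1H4K, -0.932 for HIST1H4C and -0.638 for HIST1H4D.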

How the results depend on the processing

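The KO fall, the difference of responses and the gap under camptothecin kept their direction and stayed within 1.5 times their counts under each alternative run, and no called change reversed. Of 110 log2 changes of named genes, 17 that were not called turned sign under some alternative, among them, in parent cells, HIST1H2BM (-0.2247, 0.005076 without parent DMSO replicate 1) and HIST1H3B (0.07572, -0.01596 without it), and in KO cells HIST1H4F (-0.7827, 0.1874). Members lower in parent cells with camptothecin numbered 1 with library size alone, 5 with no filter, 1 with total gene reads and 1 with only the groups compared. Of all genes in those fits 11.9%, 10.8%, 16% and 14.4% were lower, in that order. The fit with no filter also holds members left untested in the main fit. Between KO DMSO and parent DMSO libraries, lower members numbered 3, 14, 4 and 2 under the same settings in that order, and higher members 1 with library size alone and 5 with no filter. Of all genes 4.56%, 6.19%, 7.82% and 3.63% were lower in those fits. Higher were 12.2% with library size alone and 5.07% with no filter. With no filter, intron calls lower numbered 3 in parent cells and 6 between KO DMSO and parent DMSO libraries. Shares of all genes in that intron fit are not given here. Camptothecin over DMSO in summed level, with library size alone and with unshared exon reads in that order, was in KO cells 0.4376 and 0.4454 for all members, 0.4093 and 0.4138 for H2A, 0.382 and 0.3888 for H2B, 0.4635 and 0.4744 for H3, and 0.4958 and 0.5071 for H4. In parent cells it was 1.367 and 1.363 for all, 1.682 and 1.715 for H2A, and 1.255 and 1.244 for H4. With 1 copy of each near-identical pair left out of the sums, it was 1.211 for all members and 1.426 for H2A in parent cells. Reads shared by other members, such as HIST1H2AD and HIST1H3D, stayed in those sums under both names. The sums of unshared exon reads were scaled to library size without TMM, so they differ from the main sums in both scale and read class. The cause of the other shifts was not tested. Library size alone put the median log2 change of all genes at 0.171 in KO cells, against 0.0176 with TMM. It called 5.41% of genes lower and 19.9% higher, against 9.28% and 7.3% with TMM. In parent cells that median was 0.138, against 0.0126, with 11.9% lower and 24.3% higher, against 17.1% and 16.8%. Between the genotypes under camptothecin it was 0.124, against 0.00449, with 9.35% lower and 21.2% higher, against 14.6% and 13.4%.

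With each library left out in turn, members lower in KO cells numbered 58 to 60, in the difference 57 to 59, and under camptothecin 59 to 61. Of all genes in those fits 6.3% to 14.3%, 2.96% to 9.3% and 10.7% to 20.1% were lower, in that order. In parent cells 19 to 38 were higher and 1 to 3 lower, beside 12.9% to 19% and 13.4% to 17.4% of all genes. Between KO DMSO and parent DMSO libraries 2 to 11 were lower and 0 to 3 higher, beside 4.09% to 9.4% and 5.68% to 9.59% of all genes. The 11 came without parent DMSO replicate 1, the 2 without any KO DMSO library, and 4 were lower without any parent camptothecin library. Intron calls higher in parent cells ranged over 3 to 10, with 3 without parent camptothecin replicate 1 or 2 and 10 without parent DMSO replicate 1, and intron calls lower between KO DMSO and parent DMSO libraries over 1 to 4, with 1 without KO DMSO replicate 3. Shares of all genes in those intron fits are not given here. Summed ratios for all members were 0.3842 to 0.4112 in KO cells and 1.243 to 1.272 in parent cells.

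Replicate numbers did not pair libraries (0 of 18 same-number pairs correlated above 0.1). With a replicate block 58 members were lower in KO cells, 30 higher in parent cells, 58 lower in the difference, 7 lower between KO DMSO and parent DMSO libraries and 59 lower under camptothecin. Of all genes in that fit 9.03%, 16.8%, 4.16%, 7.05% and 14.4% were called the same way, in that order. Depth limits HIST1H4F, HIST1H4G, HIST3H2A and the 5 untested members, which had too few reads for their changes to be read.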
